A study of Mus musculus with 6 samples.

Results

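Acute-phase genes encode proteins whose level changes during inflammation, and the 8 examined here are the serum amyloid A genes Saa1, Saa2 and Saa3, the siderophore-binding lipocalin gene Lcn2, the long pentraxin gene Ptx3, the haptoglobin gene Hp, the alpha-1-acid glycoprotein gene Orm1 and the ceruloplasmin gene Cp. The members were the non-control probes whose gene name in the scanner files is one of these, which gave 11 probes, for 8 genes, of 41174 probes in all. In mouse dermal fibroblasts the label "Saa3, Lcn2 and Ptx3" held in part. Ptx3 and Saa3 were higher after interleukin-1 (IL-1), whereas the Lcn2 probe was well above background in 1 of its 12 measurements and gave no measurable response.

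The RNA came from cultured dermal fibroblasts of C57BL/6 mice, kept in medium with 10% serum and given IL-1 at 20 ng/ml for 1, 2 or 4 h or left untreated (0 h). The labels name neither the IL-1 form nor the number of mice or cultures. On each of the 6 two-colour arrays, RNA from cells treated for 1, 2 or 4 h was labelled with one dye and hybridised beside untreated RNA labelled with the second. The 2 arrays of a time point exchanged the dyes (Cy5 and Cy3) and count as 1 treated sample, so their distance is a technical error only.

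Hepatocytes are the textbook source of the acute-phase proteins in blood, where interleukin-6 acts through STAT3 and C/EBP factors and IL-1 through NF-kB. Saa3 and Ptx3 are known to be made outside the liver by stromal cells and macrophages. Saa1 and Saa2 are near-identical genes of the liver response, and Lcn2, Hp and Cp handle iron, haemoglobin and copper.

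All 6 arrays were read in one format with 314 negative control spots each. Their median brightness was 68.4 to 74.1 in Cy5 and 96.3 to 104.4 in Cy3, so a spot near these levels shows no RNA. The flag "well above background" of the scanner software is permissive, since as many as 14.3% of the Cy3 negative controls of 1 array, and at most 2.55% of the Cy5 ones, had it. Of 12 fibroblast markers, 12 were above background in the untreated RNA on all 6 arrays, among them Dcn, Pdgfra and Thy1. Markers of other cell types were also above background there: 9 of 10 macrophage markers on the array, 5 of 6 keratinocyte, 5 of 8 adipocyte, 5 of 10 hepatocyte, 3 of 6 endothelial and 2 of 9 neutrophil markers. Alb and Apoa1 of hepatocytes, Fabp4 and Plin1 of adipocytes and Ptprc and Cd68 of macrophages were among these, while Ttr, Adipoq, Itgam, S100a8 and S100a9 did not pass the filter on dim probes. Of all 41174 probes, at least 26098 were above background in treated and untreated RNA on every array. That is the share to set beside these counts, which take a gene by any of its probes. In the mean response described further on, 3 fibroblast markers (Dcn, Fn1 and S100a4, the last with saturated spots) and 3 macrophage markers (Cd14, Csf1r and Lyz2) rose, and 1 fibroblast, 1 adipocyte and 1 keratinocyte marker fell (limma; 10.8% of all genes rose and 11.1% fell). The hepatocyte, neutrophil and endothelial lists had 0 calls. With median centring the macrophage list had 0 up, as with the processed signals. The fibroblast list had 2 up and 4 down with median centring, with S100a4 and Lyz2 below 0. Of all 30580 probes 1681 rose and 7454 fell with median centring, and 1033 rose and 933 fell with the processed signals. The part of other cell types in the values of the acute-phase genes was not tested. The number of arrays limits the precision of all values.

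The directions given here rest on the dyes in the labels. In the authors' deposited table the 2 columns of each time point are exchanged relative to the scanner files, and if the scanner files were the exchanged ones every log2 ratio would change sign. In the labelled direction Il6, a textbook target of IL-1, stood at log2 ratios of 2.51, 2.96 and 2.73 at 1, 2 and 4 h.

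The promoters of the 3 serum amyloid genes are shown because these genes lie together on chromosome 7 and their probes gave different values, and that of Ptx3 because it had the largest mean response of the members tested. RefSeq (GRCm38.p6) had a promoter entry for 6 of the 8 genes, all but Hp and Orm1. The 250 bases before the start site are given 5′ to 3′, with matches to the C/EBP motif TTNNGNAAT in capitals.
Saa1, chr7:46742981-46743230, minus strand: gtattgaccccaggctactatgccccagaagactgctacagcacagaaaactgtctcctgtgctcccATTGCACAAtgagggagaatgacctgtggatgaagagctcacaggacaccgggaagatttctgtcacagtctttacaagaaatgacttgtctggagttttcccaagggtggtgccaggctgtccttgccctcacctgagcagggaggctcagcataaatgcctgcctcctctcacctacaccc
Saa2, chr7:46751583-46751832, plus strand: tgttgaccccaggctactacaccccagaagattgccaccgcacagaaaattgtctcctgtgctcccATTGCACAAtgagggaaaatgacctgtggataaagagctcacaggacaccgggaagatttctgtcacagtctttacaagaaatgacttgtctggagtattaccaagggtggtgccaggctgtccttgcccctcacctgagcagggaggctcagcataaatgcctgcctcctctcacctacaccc
Saa3, chr7:46715677-46715926, minus strand: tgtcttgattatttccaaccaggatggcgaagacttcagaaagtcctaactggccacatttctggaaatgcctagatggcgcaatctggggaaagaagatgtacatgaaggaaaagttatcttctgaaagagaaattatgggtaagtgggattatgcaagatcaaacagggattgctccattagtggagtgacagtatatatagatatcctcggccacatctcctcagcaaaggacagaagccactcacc
Ptx3, chr3:66219637-66219886, plus strand: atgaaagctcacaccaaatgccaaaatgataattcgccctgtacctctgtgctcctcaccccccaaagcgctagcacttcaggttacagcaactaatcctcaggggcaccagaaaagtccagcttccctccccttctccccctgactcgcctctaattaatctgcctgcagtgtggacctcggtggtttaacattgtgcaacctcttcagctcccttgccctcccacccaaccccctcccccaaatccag
The Saa1 and Saa2 windows were identical in 238 of 251 alignment columns (94.8%), and Saa1 and Saa3 in 139 of 284 (48.9%). Saa1 and Saa2 each held 1 C/EBP match on the opposite strand, at positions -183 to -175 and -184 to -176 from the start site. Of 32851 windows of this length in the table, 10.2% held this motif on either strand. The NF-kB consensus matched 3.9% of all windows and none of the 6 genes' windows, those of Lcn2 and Cp included. No match says only that these letters are not in the window searched.

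Ptx3, a pattern-recognition protein that binds complement C1q and microbes, was above background in treated and untreated RNA at every time and higher with IL-1. It was measured by 2 overlapping probes on the plus strand of chromosome 3, A_51_P374726 at 65898085 to 65898144 and A_52_P26161 at 65898040 to 65898099 (genome build not given in the sources used here), which share 15 bases and so are not independent. The brightness of A_51_P374726 in Cy5 was 2602, 2365 and 2576 for RNA of 1, 2 and 4 h with IL-1, against 1434, 1531 and 1273 for untreated RNA on the paired arrays. In Cy3 it was 1168, 1314 and 960.3 with IL-1 against 709.7, 659.9 and 821.5 untreated. All treated values lay above all untreated values of the same dye, and every one of the 12 was brighter than all 314 negative controls.

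On the log2 scale, treated over untreated, A_51_P374726 stood at 0.88 and 1.11 in the 2 orientations at 1 h. At 2 h it stood at 0.98 and 1.11, and at 4 h at 0.75 and 0.80. The second probe gave 0.90 and 0.89, 0.99 and 0.98, and 0.81 and 0.63. These average to 2.00-, 2.06- and 1.71-fold for the first probe and 1.86-, 1.98- and 1.65-fold for the second. Both probes were thus higher at the first time sampled and lower at 4 h than at 1 h or 2 h in each orientation, while the 1 h and 2 h values of A_51_P374726 overlapped. In RNA pooled over a culture, more Ptx3 RNA per cell and more cells making it cannot be told apart.

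A mean response (the average log2 ratio of the 3 treated samples) was compared with 0 in limma for the 30580 probes past the filter, with a Benjamini-Hochberg threshold of 0.05. Nothing states that the time points were separate cultures, so p-values measure the spread between these samples, and variation among untreated cultures does not enter them. Ptx3 rose by 0.94 ± 0.0513 (SE, n = 3, limma adjusted p = 0.000505) on the first probe and by 0.87 ± 0.0497 (limma adjusted p = 0.00057) on the second, higher in 3 of 3 samples. Per doubling of time the fitted slopes were -0.11 and -0.09, which did not pass (limma adjusted p = 0.452 and 0.599). That slope is a straight line over the 3 times, and the averages did not fall from 1 h to 2 h. The lower value at 4 h was therefore not tested by itself.

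Another probe carrying the name Ptx3, A_52_P995941, lies on the other strand 76231 bases away, at 65821749 to 65821808 of chromosome 3, and was designed on a RIKEN clone described as unclassifiable. It was well above background in none of its 12 measurements, and 60 to 263 of the 314 negative controls were dimmer than it. Its log2 ratios lay between -0.03 and 0.03, and the values of Ptx3 rest on the other 2 probes.

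**Figure D1:**
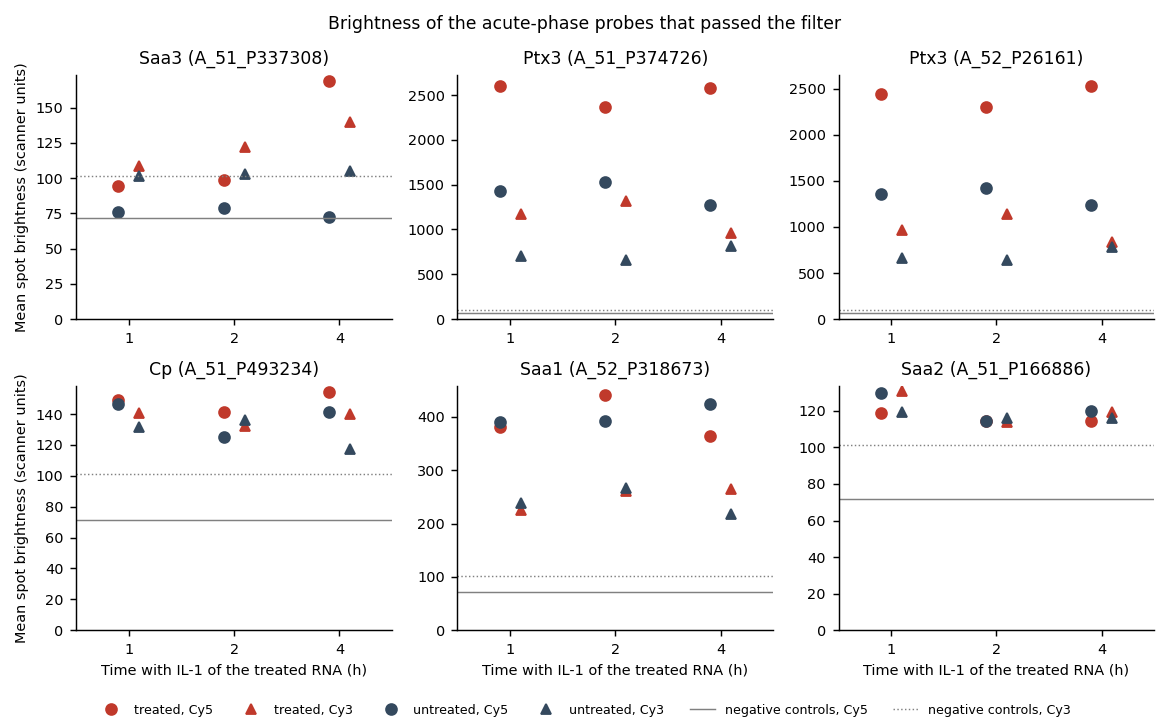
Mean brightness in scanner units (y axis, from 0) of the 6 probes that passed the filter, by time of the treated RNA (x axis); circles are Cy5, triangles Cy3, red is treated and dark blue untreated RNA of the same arrays, and grey lines are median negative controls. Saa3 in untreated RNA stays near the negative controls while treated RNA reaches 168.6 in Cy5 at 4 h, and both Ptx3 probes are brighter in treated than in untreated RNA within each dye.

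Saa3, the serum amyloid gene expressed by stromal and fat cells and macrophages, was highest at 4 h. Its probe A_51_P337308 lies at 40798010 to 40798069 of chromosome 7 on the minus strand. In Cy5 its brightness was 94.2, 98.9 and 168.6 at 1, 2 and 4 h with IL-1, and 75.8, 79.1 and 72.2 untreated. In Cy3 it was 108.6, 122.3 and 139.5 with IL-1, and 101.3, 103.1 and 105.3 untreated. Every treated value lay above every untreated value of the same dye, and the treated values were highest at 4 h.

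Untreated RNA was not well above background for Saa3 on any of the 6 arrays, and 133 to 287 of 314 negative controls were dimmer there. Treated RNA was well above background on 1 of 2 arrays at 1 h and on both at 2 h and at 4 h. At 4 h it was brighter than all 314 negative controls in both dyes. The probe therefore passed the filter only through the treated samples. Its change is given as a lower bound for the average of both orientations under the processing used here. This bound was 1.33-fold at 2 h and 1.74-fold at 4 h. The normalised channel means were 6.43 against a limit of 6.03 at 2 h, and 6.96 against 6.16 at 4 h (log2). Here the limit is, for each array, the higher of the probe's own untreated signal and the lowest signal of any probe well above background. At 2 h it was the probe's own untreated signal, so that bound equals the measured fold. The orientation with treated RNA in Cy5 lay below the bound at both times (log2 ratios of 0.29 and 0.74). So did the averages without background correction (0.27 and 0.67).

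The measured log2 ratios of Saa3 at 1 h were 0.25 and 0.19, rising to 0.29 and 0.52 by 2 h and to 0.74 and 1.05 by 4 h. The 3 time points did not overlap, in the order 1 h, 2 h, 4 h in both orientations. The fits below stand on this probe's ratios over an untreated signal that was not measured above background. The probe also entered them only through its treated samples. They therefore describe these values and are no support for a change or for its size. The slope was 0.34 ± 0.0429 per doubling of time (SE, n = 3, limma adjusted p = 0.0352), and the mean response was 0.51 ± 0.115 (limma adjusted p = 0.0258). Rising slopes were called for 0.196% of all probes. The slope rested on 1 residual degree of freedom, and its adjusted p was 0.475 with an offset of 16, 0.533 with the scanner's processed signals, 0.156 with limma's trended robust variance and 0.354 without replicate 2 (the arrays with treated RNA in Cy3).

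The size of the Saa3 change depended on the background correction. An offset of 50, added to every corrected signal, pulls dim ratios towards 0, and the average log2 ratios were 0.22, 0.41 and 0.89 with it. With the scanner's processed signals they were 1.45, 2.02 and 3.17, where the untreated signal was replaced by a surrogate on 2 of 6 arrays. Neither set gives a fold, since the untreated level is only bounded. The mean response from the processed signals was 2.22 and its limma adjusted p was 0.0533; without the 2 h sample the adjusted p was 0.0892.

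**Figure D2:**
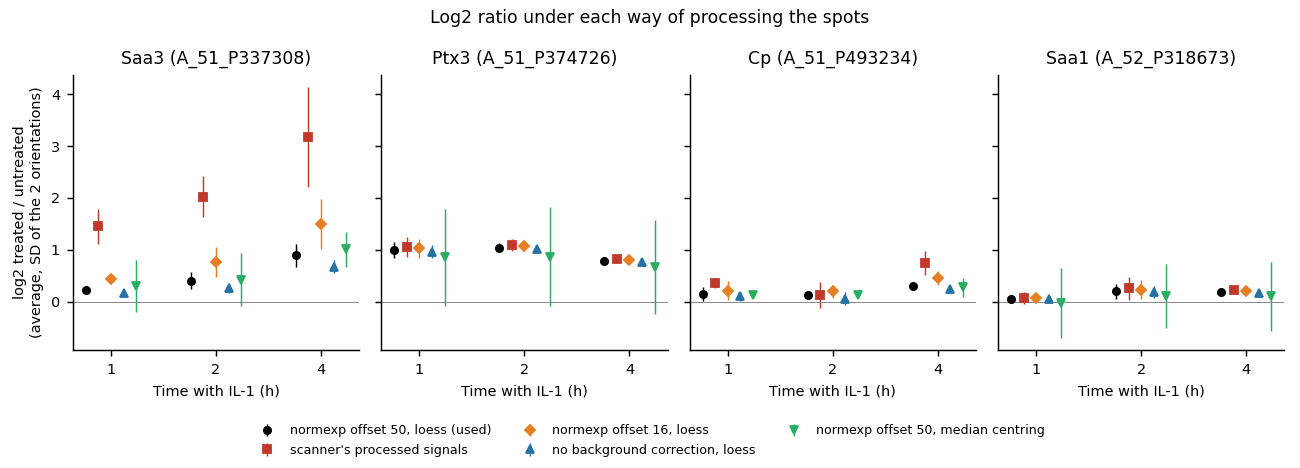
Average log2 ratio of treated over untreated (y axis) at 1, 2 and 4 h (x axis) for 4 probes under 5 ways of processing the spots; bars are the SD of the 2 dye orientations. Saa3 moves from 0.89 to 3.17 at 4 h between the values used here and the scanner's processed signals, whereas the average of Ptx3 (A_51_P374726) stays between 0.67 and 0.82 at that time. Its single orientations do not: their SD at 4 h was 0.91 with median centring, against 0.03 with the values used here.

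The other serum amyloid genes showed small differences or none past the test. Saa1 was measured by A_52_P318673 (chromosome 7, 40826049 to 40826108), which was above background in all 12 measurements. Its brightness was 365.1 to 440.5 in Cy5 and 225.8 to 265.3 in Cy3 with IL-1, and 390.1 to 424.3 and 217 to 266.6 untreated, so the groups overlapped in both dyes. At 1 h the log2 ratios were 0.02 and 0.09, at 2 h 0.09 and 0.30, and at 4 h 0.18 in both orientations. The mean response of 0.14 ± 0.0335 (SE, n = 3, limma adjusted p = 0.0278) passed the threshold, a 1.11-fold difference. It no longer passed with median centring (0.06, limma adjusted p = 0.273) or the processed signals (0.18, limma adjusted p = 0.104), nor without the 2 h or the 4 h sample (limma adjusted p = 0.173 and 0.0863). An offset of 16 and leaving out replicate 2 also ended the call (limma adjusted p = 0.0589 and 0.0834).

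The second Saa1 probe, A_51_P361650 (40826146 to 40826618, a stretch longer than the probe), was well above background in 1 untreated and 0 treated measurements of 6 each. Its log2 ratios averaged 0.05, -0.04 and -0.05 at 1, 2 and 4 h, without the small rise of the first probe. At this dim signal they measure no change. Saa2, probed by A_51_P166886 at 40839514 to 40839573, was above background in all 12 measurements at a dim 114.1 to 130.9 across both dyes. Of the 314 negative controls, 284 to 314 were dimmer than it with IL-1 and 299 to 314 untreated. Its log2 ratios were 0.07 and 0.16, 0.11 and -0.13, and 0.04 and 0.05, and the mean of 0.05 ± 0.0304 did not pass (limma adjusted p = 0.312). The accession list of the Saa3 probe in the scanner files names RefSeq transcripts of both Saa3 and Saa1, and the Saa1 probe A_52_P318673 shares sequence entries with the Saa3 and Saa2 probes. Signal of one serum amyloid gene on another's probe was not tested.

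Cp, the copper-carrying ferroxidase, moved little. Probe A_51_P493234 (chromosome 3, 19330350 to 19330409) was dim, at 132.5 to 154.4 with IL-1 and 117.4 to 146.4 untreated. It was above background in 6 of 6 treated and 5 of 6 untreated measurements, and so passed the filter only through its treated samples. At 1 h its log2 ratios were 0.05 and 0.23, at 2 h 0.07 and 0.19, and at 4 h 0.36 and 0.25. Since the probe entered the fit only through its treated samples, the fit describes these values and is no support for a change. The mean response was 0.19 ± 0.0389 (SE, n = 3, limma adjusted p = 0.018), higher in 3 of 3 samples, or 1.14-fold. It did not pass with the processed signals (0.41, limma adjusted p = 0.135), without replicate 2 (limma adjusted p = 0.0764) or without the 2 h sample (limma adjusted p = 0.0562).

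Lcn2, which sequesters bacterial siderophores and is widely used as an NF-kB target, could not be measured. Probe A_51_P510156 (chromosome 2, 32317680 to 32317924) had a brightness of 83.1, 76.7 and 74.0 in Cy5 at 1, 2 and 4 h with IL-1 against 86.8, 77.7 and 72.6 untreated. In Cy3 it was 117.9, 110 and 98.5 with IL-1 against 114.3, 110.3 and 102.5 untreated. The groups overlapped, and the single flag was in treated Cy3 RNA at 1 h, where 288 of 314 negative controls were dimmer. The log2 ratio was below 0 on all 3 arrays with treated RNA in Cy5 (-0.22, -0.18 and -0.13) and above 0 on all 3 with it in Cy3 (0.28, 0.22 and 0.01), and the averages were 0.03, 0.02 and -0.06. With the processed signals both orientations at 2 h were below 0 (-0.85 and -0.36). No fold is given, since neither group was above background.

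Hp and Orm1 were also below the filter. The haptoglobin probe A_51_P235945 (chromosome 8, 108872949 to 108873008) was well above background in 0 of 12 measurements, with log2 ratios between -0.11 and 0.11. Orm1, the lipocalin-type plasma carrier, carried the flag in 1 treated and 1 untreated measurement, both at 2 h in Cy5, on probe A_51_P336325 (chromosome 4, 62436641 to 62437248). Its log2 ratios ranged from -0.16 to 0.05. A response of these genes was not detectable at this signal, which does not show that there was none.

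**Figure D3:**
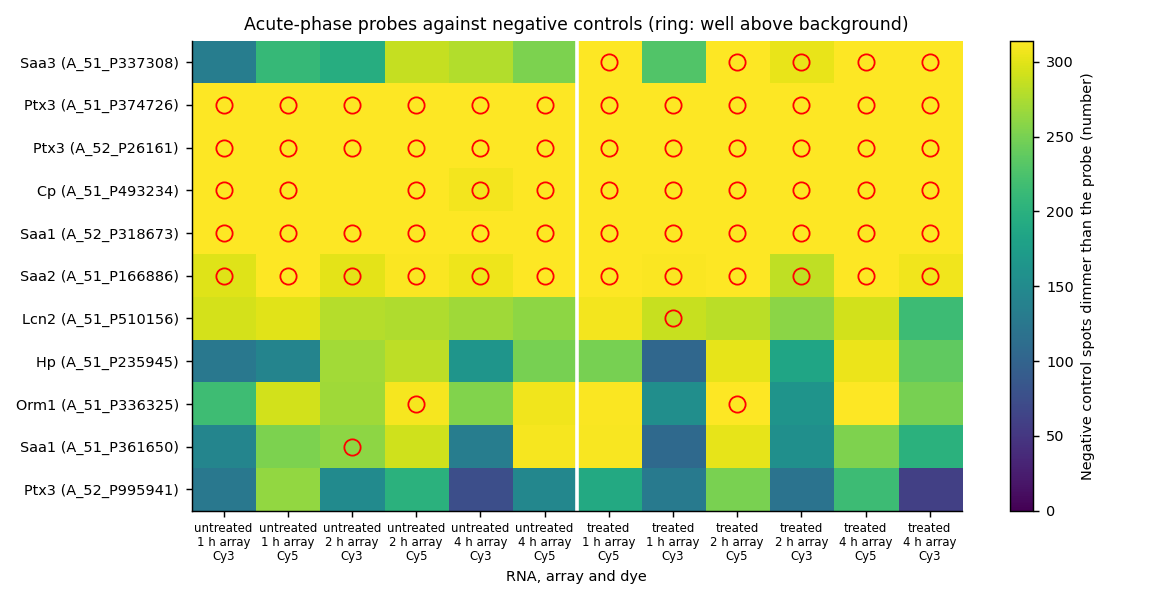
Number of the 314 negative control spots dimmer than each probe (colour) in each of 12 measurements (x axis: RNA, array and dye; y axis: the 11 probes); rings mark spots flagged well above background. The upper 6 probes passed the filter; Saa3 is ringed in 5 treated and 0 untreated measurements and Lcn2 in 1.

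**Figure D4:**
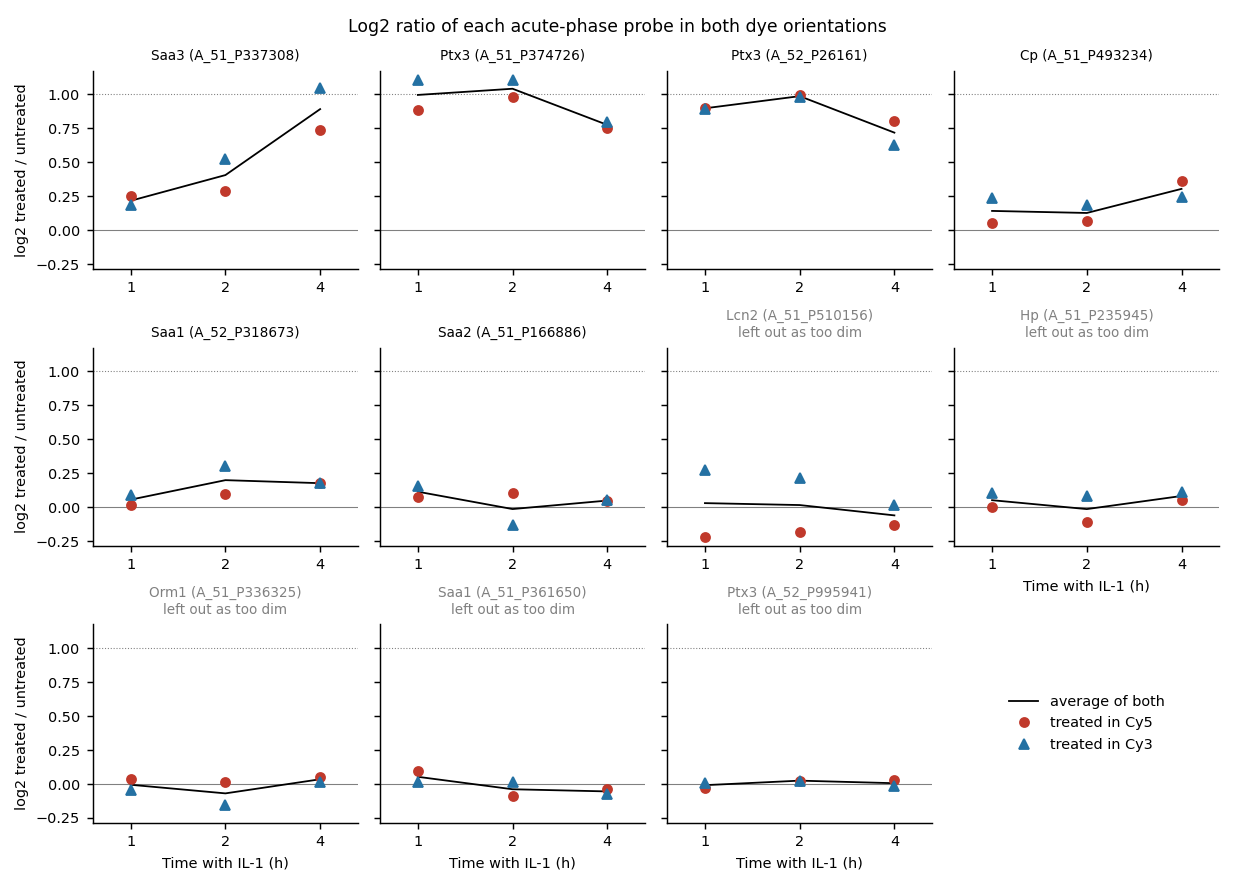
Log2 ratio of treated over untreated RNA (y axis) at 1, 2 and 4 h (x axis) for the 11 probes; circles have treated RNA in Cy5, triangles in Cy3, the line is their average, and the dotted line marks 2-fold. Saa3 climbs from 0.22 to 0.89, both Ptx3 probes start near 1, and the circles and triangles of Lcn2 lie on opposite sides of 0 at each time.

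Of the 11 probes, 5 passed upward in the mean response, 1 did not pass (Saa2) and 5 were too dim to test. Of the 5, both Ptx3 probes and Saa1 were above background in untreated RNA on all 6 arrays. Cp (5 of 6 untreated measurements) and Saa3 (0 of 6) were tested only because their treated samples passed the filter. The calls of Cp and Saa3 therefore describe their values and are no support for a change. By the same test 10.5% of all 30580 probes rose and 11.4% fell, and 97.1% of the called probes had a mean below 0.5 in size. The values of Cp and Saa1 are of that small size, and those of both Ptx3 probes are above it. Saa3 lay at the border, at 0.51, and was 0.42 without replicate 2, 0.37 without background correction and 0.31 without the 4 h sample. It was 0.55 without the 2 h sample, 0.58 with median centring, 0.59 without replicate 1 and 0.65 without the 1 h sample. With an offset of 16 it was 0.90, and with the processed signals 2.22. Over all probes the median mean response was 0.0021.

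At no single time did a member reach 2-fold in both orientations (0 of 11 probes). Over all probes the share at least 2-fold higher was 0.17% at 1 h, 0.134% at 2 h and 0.111% at 4 h, and the share at least 2-fold lower was 0.00654% at 1 h and 0% at 2 h and 4 h. With every sign turned these shares change places. Ptx3 at 2 h fell just short of this limit, with 3 of its 4 values between 0.98 and 0.99 and the other at 1.11. With the scanner's processed signals Saa3 passed at all 3 times and both Ptx3 probes at 2 h. With an offset of 16 the Ptx3 probe A_52_P26161 passed at 2 h and Saa3 at 4 h. Between 1 h and 4 h no member differed by 2-fold within both orientations. Saa3 came nearest, higher by 0.49 and 0.86, and 0.00654% of all probes were 2-fold higher at 4 h than at 1 h while 0.0687% were 2-fold lower.

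**Figure D5:**
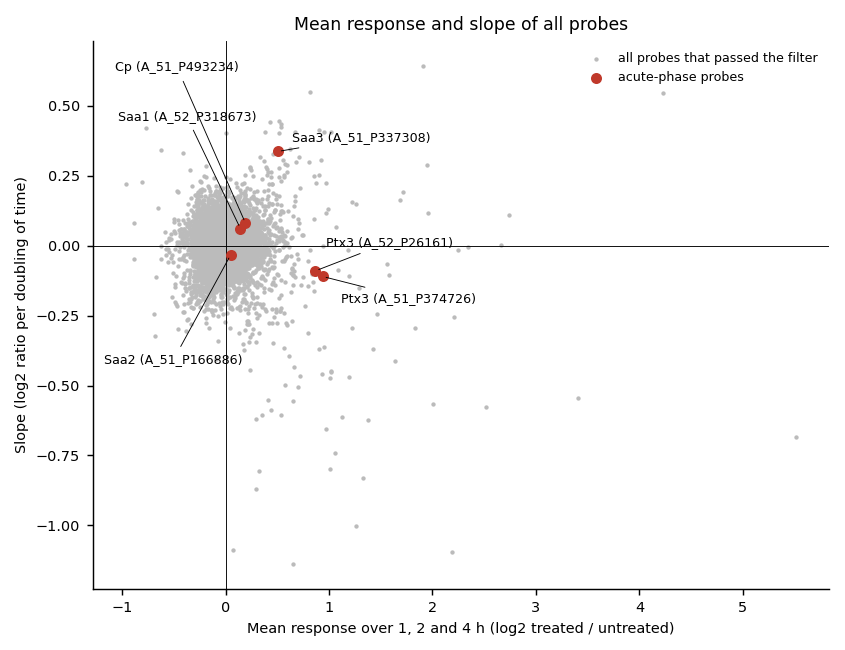
Mean response (x axis, log2) against slope per doubling of time (y axis) for the 30580 probes that passed the filter (grey) and the 6 acute-phase probes among them (red). The Ptx3 probes lie at a mean of 0.94 and 0.87 with slopes just below 0, Saa3 at 0.51 with a slope of 0.34, and Saa1, Saa2 and Cp near the centre.

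Genes with the most similar ratios were sought among the 3376 other named genes past the mean-response threshold, by Euclidean distance of log2 ratios over the 6 arrays. The Saa3 ratios are those with the offset of 50, so its neighbours depend on that setting; with the processed signals the mean response was 2.22 for Saa3 and 0.49 for Dcn. With the offset, nearest to Saa3 were the matrix proteoglycan decorin, Dcn (distance 0.25; 0.14, 0.44 and 0.80 at 1, 2 and 4 h), the inactive rhomboid Rhbdf2 (0.27) and the class I histocompatibility gene H2-T10 (0.32). Nearest to the Ptx3 probe A_51_P374726 were the Toll-like receptor gene Tlr2 (0.41; 1.10, 1.23 and 0.93), the syndecan gene Sdc4 (0.48) and the NF-kB subunit gene Nfkb2 (0.50). Sdc4 (0.22) was also nearest to the second Ptx3 probe, followed by Rffl (0.31) and Uap1 (0.39). Nearest to Cp were Cbr2, Cttn and Ftsj3, and nearest to Saa1 Mapk8ip3, Smoc2 and Gas2l1. These 6 points share the untreated condition and, in threes, a dye orientation.

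Among inducers and transcription factors of the acute phase, 15 of 29 measured genes rose and 2 fell in the mean response, with a list median of 0.16, against 10.8% and 11.1% of all genes represented by their brightest probe. Il6 was highest at 2.74 ± 0.0766 (limma adjusted p = 8.02e-05), followed by the IkB family cofactor Nfkbiz at 2.19, Relb at 1.83 and the C/EBP factor Cebpd at 1.58. Cebpb rose by 1.18, and the oncostatin M receptor gene Osmr by 0.49. Stat3 fell by 0.19, while the interleukin-6 receptor gene Il6ra (0.02, limma adjusted p = 0.705) did not pass. The counts were 11 and 2 under median centring, where 1681 of all 30580 probes rose and 7454 fell. They were 10 and 0 with the processed signals, where 1033 of all probes rose and 933 fell.

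Of 23 measured genes for other positive acute-phase proteins, 6 rose and 0 fell, with a median of 0.03. Among them were the metallothioneins Mt2 (0.63) and Mt1 (0.31), the IL-1 receptor antagonist Il1rn (0.40), complement C3 (0.15, 0.29 and 0.62 at 1, 2 and 4 h) and Cd14 (0.17). A further 7 genes on the array, including Serpina3n, Orm2, Orm3, Fgg and Hamp, were too dim to test. Of 8 measured negative acute-phase genes, whose liver products fall in inflammation, 0 rose and 1 fell, Igf1 (-0.12), against 10.8% and 11.1% of all genes.

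Of 12 measured genes for receptors and partners of these proteins, 2 rose and 0 fell: Tlr2, a receptor for serum amyloid A (1.09), and Tnfaip6, which binds Ptx3 in hyaluronan-rich matrix (0.28). By the same test 10.8% of all genes rose and 11.1% fell with the values used here. That is the share to set beside each list count under those values. With the processed signals 1033 of 30580 probes rose and 933 fell, and with median centring 1681 rose and 7454 fell. Iron and copper genes had 7 of 13 up and 1 down. Haem oxygenase Hmox1 stood at 0.33, 0.55 and 0.82, the iron importer Slc11a2 averaged 0.37 and the transferrin receptor Tfrc 0.30, while the ferritin light chain Ftl1 fell by 0.24. These counts were 1 up and 2 down with the processed signals and 3 up and 3 down with median centring, under which Atp7a and Aco1 turned below 0. Among relatives and other secreted defence genes 3 of 11 rose, led by the protease inhibitor Slpi (0.29, 0.61 and 0.98), and the small values of Lyz1 (0.10) and Lyz2 (0.09) turned below 0 with median centring. With the processed signals 0 of the 11 passed (limma). The neutrophil proteins S100a8, S100a9 and Camp were too dim to test.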

How the data were processed

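Two-colour Agilent arrays compared RNA of IL-1-treated and untreated dermal fibroblasts. Spots were quantified in Agilent Feature Extraction 7.5.1, per the file headers, which wrote a mean and a local background intensity for every spot. Its processed intensity had spatial detrending and dye normalization switched on, per the file headers. The deposited log10 ratio of Cy5 over Cy3 was not used, and the p-value of each spot's ratio from the software, per the file headers, was kept in the tables only. The authors' deposited value table is on a log2 scale; each column equals treated over untreated of the other array of its time point for 100% of spots within 0.001. Scale and centring are thereby known, and the direction rests on the labels. Column medians were -0.026 and 0.0261, -0.0309 and 0.0311, and -0.0325 and 0.0283 at 1, 2 and 4 h.

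In limma 3.58.1 (R 4.3.3), normexp with an offset of 50 and then loess were applied to the mean signals, with control spots at weight 0. Outlier spots were left out and saturated spots kept. The filter on dim probes asked for the flag "well above background" on all arrays of 1 or more of the 4 conditions (30634 of 41174 probes passed), and 54 of these lacked a value. Pairs were averaged, and mean response and slope, with 2 and 1 residual degrees of freedom, were fitted over all kept probes with lmFit and eBayes, two-sided; the fits were tested on simulated data. Bounds use channel levels after Aquantile normalization of the same arrays. Gene lists take the brightest probe of a gene, named through RefSeq accessions.

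The members and lists were chosen with earlier results of these data known. Named from each list were the up to 4 genes with the largest mean response past the threshold, plus others named after their values were seen (Cebpb, Osmr, Stat3, Il6ra, Mt1, Cd14, Atp7a, Aco1 and those below the filter), and for each called probe the 3 genes nearest by distance. A gene that this rule names is not reported here.

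Arrays sharing a replicate number deviated together (correlation over probes 0.765 to 0.843 after removing each time's mean); per the labels the numbers mark dye orientation, and with 2 arrays per time point this mirrors 1 dye effect per probe. Alternatives covered background correction, normalization, filters, the deposited table, left-out arrays and times, blocks and the variance model. Each array lies on its own slide and all were read on 1 date, so neither gave a block. Promoter windows were aligned with Biopython 1.88.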

Additional observations from a re-analysis of the deposited data

Results flagged for a closer look

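The Saa3 probe A_51_P337308 was flagged for its fitted slope of 0.337 per doubling of time in the log2 ratio (limma adjusted p = 0.0352). The measured values were 0.22, 0.41 and 0.89 at 1, 2 and 4 h, higher at each later time in both orientations. The probe's untreated signal was not well above background on any of the 6 arrays, and the probe was tested only because its treated samples passed the filter. The fit therefore describes these values and is not used as support. The slope did not pass with an offset of 16, the processed signals, trended robust variance or without replicate 2 (limma adjusted p = 0.475, 0.533, 0.156 and 0.354). With the offset of 16, the processed signals and trended robust variance, 0 of all 30580 probes were called rising.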

How the results depend on the processing

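The direction of the mean response of the 6 tested probes was the same under every alternative run. The count of acute-phase probes that passed upward was 5 with the values used here (Saa3 and Cp included). It fell to 2 when processed signals or the authors' deposited value table were used, and to 2 without the 2 h sample. It was 3 with the stricter filter (which leaves out Saa3 and Cp), and leaving out a replicate gave 3 to 5. Both Ptx3 probes kept their call in each of these settings. Of all 30580 probes 3216 rose with the values used here. This number was 1033 with the processed signals or the deposited table and 927 without the 2 h sample. It was 4539 without replicate 1 and 6268 without replicate 2. With the stricter filter 3391 of 26098 probes rose. The count of rising slopes, 1 (Saa3), was 0 with the processed signals, the deposited table, an offset of 16, the stricter filter, trended robust variance and 1 probe a gene (limma adjusted p = 0.0506), and 0 to 1 when a replicate was left out. Over all probes 60 rising slopes were called with the values used here. That number was 0 with the processed signals, the deposited table, the offset of 16 and trended robust variance. It was 51 with the stricter filter and 36 with 1 probe a gene. Probes at least 2-fold higher numbered 0 at each time; with the processed signals and the deposited table they were 1, 3 and 1 at 1, 2 and 4 h, with an offset of 16 they were 1 at 2 h and 1 at 4 h, and on single arrays 0 to 1 at each time. The causes were not tested. Fitting the 6 arrays unaveraged with the replicate block (dye orientation) gave 5 rising means and 1 rising slope, changing no call. Over all probes the median mean response moved to -0.0213 with median centring, where 1681 probes rose and 7454 fell, against 3216 and 3472. Slopes without 1 time point were not run, since 2 points leave no residual, and a scan-date block was not run. Matching by accession or synonym found the same 11 probes. Dim signal limits Saa3, Lcn2, Hp and Orm1.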
